A study of Mus musculus with 47 samples.

Results

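The 9 genes described here encode the first steps of insulin signalling inside the cell: the insulin receptor gene Insr, the receptor substrate genes Irs1 and Irs2, the PI3-kinase subunit genes Pik3r1 and Pik3ca, the kinase genes Akt1 and Akt2, and the receptor inhibitor genes Grb10 and Grb14. They were chosen by symbol as named components of the pathway, and all 9 were present among the 26583 gene symbols shared by the count tables of 4 tissues. Male C57BL/6J mice gave the tissues, which were the gastrocnemius muscle, the liver, the inguinal white fat depot (IWAT) and brown adipose tissue (BAT). The mice started at 5 weeks of age and ate a methionine-restricted diet (MR, 6 mice), low in that essential amino acid, or a control diet (6 mice) for 11 weeks. Housing was at 23 C, and a fast of 5 h preceded tissue collection, so every level below was measured in fasted animals. Each group had 6 libraries, except MR muscle, which had 5. The question was how the members were distributed over the tissues and whether their levels differed between MR and control mice within each tissue.

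Insulin binding switches on the tyrosine kinase of its receptor, which phosphorylates the substrates Irs1 and Irs2. These recruit PI3-kinase, made of a regulatory subunit such as that of Pik3r1 and a catalytic subunit such as that of Pik3ca, and the lipid it makes activates the Akt kinases. Akt then promotes glucose uptake in muscle and fat and restrains glucose output by liver, while the adaptors Grb10 and Grb14 bind the active receptor and dampen it.

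Expression was measured by SAGE, in which each transcript is cut with an enzyme that recognises CATG and is counted by a short tag that starts at the cut nearest its 3′ end. Which tag a gene yields bears on several results below, so the predicted tags of the members that differ most in base composition are shown, 5′ to 3′, with the CATG cut site in capitals. They were read from GENCODE vM1 transcripts of the NCBIM37 mouse build, as the site and the 23 bases after it. Pik3ca and Akt2 have transcripts with different ends, and each of these tags is given.

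Grb14: CATGactttaaatttattagttaaaat

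Insr: CATGtataatacaggctaattacttgt

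Akt1: CATGtcgttttttacaacattcagctt

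Pik3r1: CATGgtcggttgtaattttgcctttac

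Pik3ca, end held by 2 transcripts: CATGtcctctgtaaaatttggtgtcaa

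Pik3ca, longest transcript: CATGcttggggtactctggctccaaaa

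Akt2, end held by 4 transcripts: CATGtctctccctcctcaatagctctg

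Akt2, longest transcript: CATGggcgtgtaccttccatcactaag

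The Grb14 tag held only 2 G or C bases among the 23 bases after the site, a number that 1.06% of 17345 mouse genes with a predicted tag matched or fell below. Insr had 6 such bases, Akt1 had 7, Irs1 had 8 and Pik3r1 had 9, against a median of 10 over all genes. Both Akt2 tags had 12, a number that 76.6% of genes matched or fell below. The Pik3ca tags had 8 and 12 and the Grb10 tags had 10 and 11. For Irs2 the last site in the transcript model lay 7 bases from its end, so no full tag could be read, and the model ended 30 bases after the coding sequence. On the GRCm38 build Insr lay on chromosome 8 (3150922 to 3279649), Irs1 on chromosome 1 (82233105 to 82291439), Irs2 on chromosome 8 (10984681 to 11008929) and Pik3r1 on chromosome 13 (101680761 to 101768217). Pik3ca lay on chromosome 3 (32397065 to 32466112), Akt1 on chromosome 12 (112653821 to 112674884), Akt2 on chromosome 7 (27591552 to 27640826), Grb10 on chromosome 11 (11930499 to 12037428) and Grb14 on chromosome 2 (64912476 to 65022766), per the RefSeq gene table of that build.

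Levels are given as CPM, tag counts scaled to a common library total, over 4887004 to 13117537 tags per library. A count of 0 in a library allowed up to 0.229 to 0.614 CPM, which covers counting error only. Tags of different genes are recovered unequally, so levels are compared between tissues and diets and never between genes. The 7 hepatocyte markers summed to between 97742 and 223673 CPM in liver, the 7 adipocyte markers to between 19170 and 89005 CPM in the adipose tissues, and the 7 muscle markers to between 85704 and 135215 CPM in 10 of 11 muscle libraries. The remaining muscle library, from an MR mouse, held 5420 CPM of muscle markers. Markers of other cells were also present: hepatocyte markers reached 11105 CPM in IWAT and 3800 CPM in BAT, and lymphocyte markers reached 2476 CPM in IWAT. Skeletal muscle markers reached 17199 CPM in BAT. In whole tissue, fewer cells of a type and less RNA per cell cannot be told apart.

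In 4 of the 47 libraries the whole profile stood apart from the others of the tissue, with a median Spearman correlation of 0.582 to 0.719, against 0.857 to 0.972 in the other 43. They were those of MR3116, CON3106 and CON3115 in IWAT and of MR3101 in muscle, where the letters give the diet (CON is control) and the digits the mouse. Akt2 was at 10.3, 11.2 and 43.4 CPM in these IWAT libraries, in the order named, against 442 to 803 CPM in the other 9. In muscle it was at 2.16 CPM in the library of MR3101, against 175 to 435 CPM in the other 10. Grb14 went the opposite way, with 424, 691 and 287 CPM in the same 3 IWAT libraries against 42.3 to 198 CPM in the rest, and 394 CPM in the muscle library against 44.97 to 133 CPM. Pik3ca lay above the range of the other libraries in all 4, at 183, 259 and 178 CPM in IWAT and 367 CPM in muscle. Pik3r1 and Grb10 lay below that range in 3 of the 4, with CON3115 the exception for both, while Insr lay inside it in 3.

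The members thus departed in different directions. Grb14, whose tag printed above has the fewest G and C bases, was high in all 4 libraries, and Akt2, both of whose tags have 12, was low in all 4. Pik3ca, high in all 4, has a tag with 8 such bases and another with 12, and which of these was counted is not known here. Akt1, with 7 such bases, lay below the median of the other libraries of its tissue in all 4 (log2 ratio -1.43 to -0.11). On that scale Insr, with 6, ran from -0.41 to 0.05, and Irs1, with 8, from -2.06 to 0.92. Pik3r1, with 9, ran from -3.28 to -0.55, and Grb10, with 10 or 11, from -4.62 to -0.55. A slope was taken over the genes with enough tags to be tested and a predicted tag, 9423 to 9811 per tissue. Each further G or C base went with a change of -0.348 to -0.213 in log2 CPM in these 4 libraries, and of -0.023 to 0.045 in the other 43. The change is relative to the median over all libraries of the tissue. These numbers describe the libraries, and the part of tag composition in the member values was not tested. Both diets held such libraries in IWAT, while in muscle the only one was an MR library.

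**Figure D1:**
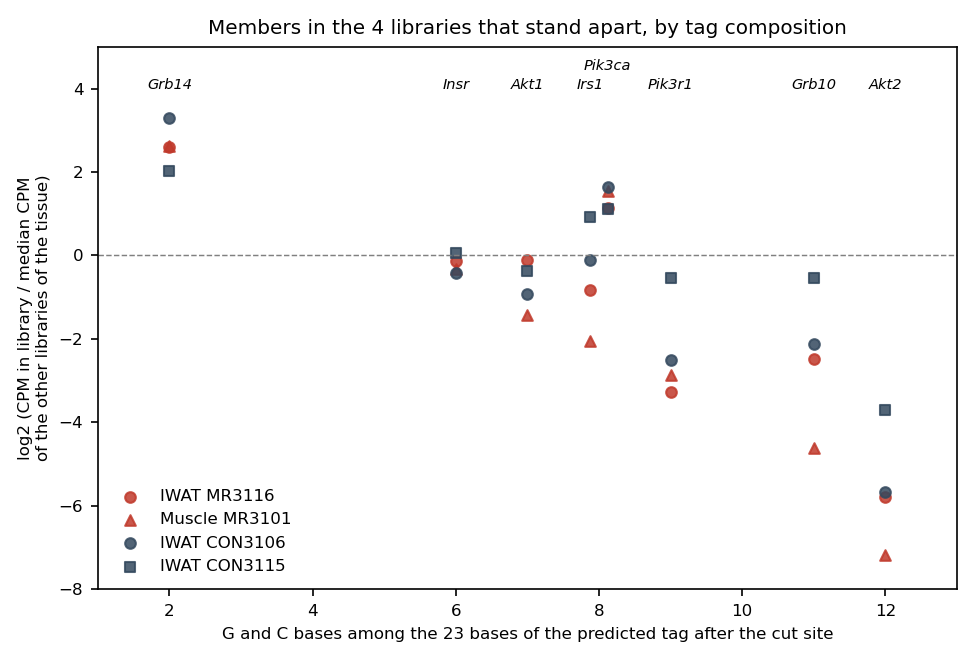
Each point is 1 member in 1 of the 4 libraries that stood apart, placed by the number of G and C bases in its predicted tag (horizontal axis, of 23 bases, using the tag that most transcripts hold, with Irs1 and Pik3ca nudged apart at 8) and by the log2 ratio of its CPM to the median of the other libraries of the tissue (vertical axis). Red points are MR libraries and dark points control libraries. Grb14 lay above 0 in all 4, between 2.04 and 3.31, and Akt2 lay below it in all 4, between -7.19 and -3.72. Akt1, with 7 such bases, also lay below 0 in all 4, between -1.43 and -0.11.

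Within each tissue, MR and control mice were compared over all genes with enough tags, with edgeR's quasi-likelihood test and Benjamini-Hochberg adjustment at a threshold of 0.05. Of the 9 members 8 had enough tags to be tested in every tissue, and Irs2 did not. None of the 8 passed in any tissue, and for all 9 members the CPM of the MR and control libraries overlapped in each tissue. Over all genes the share that passed was 0.027% of 11101 in IWAT, 1.11% of 10791 in BAT, 2.26% of 10969 in liver and 0.0% of 11225 in muscle. The share of these genes whose diet groups did not overlap in CPM, in either direction, was 2.35% in IWAT, 1.97% in BAT, 4.8% in liver and 0.294% in muscle. At an unadjusted p under 0.05 there were 0 members in IWAT, 1 in BAT (Pik3r1), 1 in liver (Akt1) and 0 in muscle. Over all tested genes the count at that cut was 975 of 11101 in IWAT and 1466 of 10791 in BAT. In liver it was 1594 of 10969 and in muscle 709 of 11225. DESeq2 passed 1 member, Akt1 in liver, and limma voom passed 0. In muscle the edgeR test passed 0 genes of any kind, and DESeq2 and limma voom also passed 0. Over the 8 tested members the median log2 fold change (MR over control) was -0.41 in IWAT, 0.16 in BAT, -0.08 in liver and 0.02 in muscle, beside medians of -0.02, 0.00, 0.01 and -0.04 over all tested genes.

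**Figure D2:**
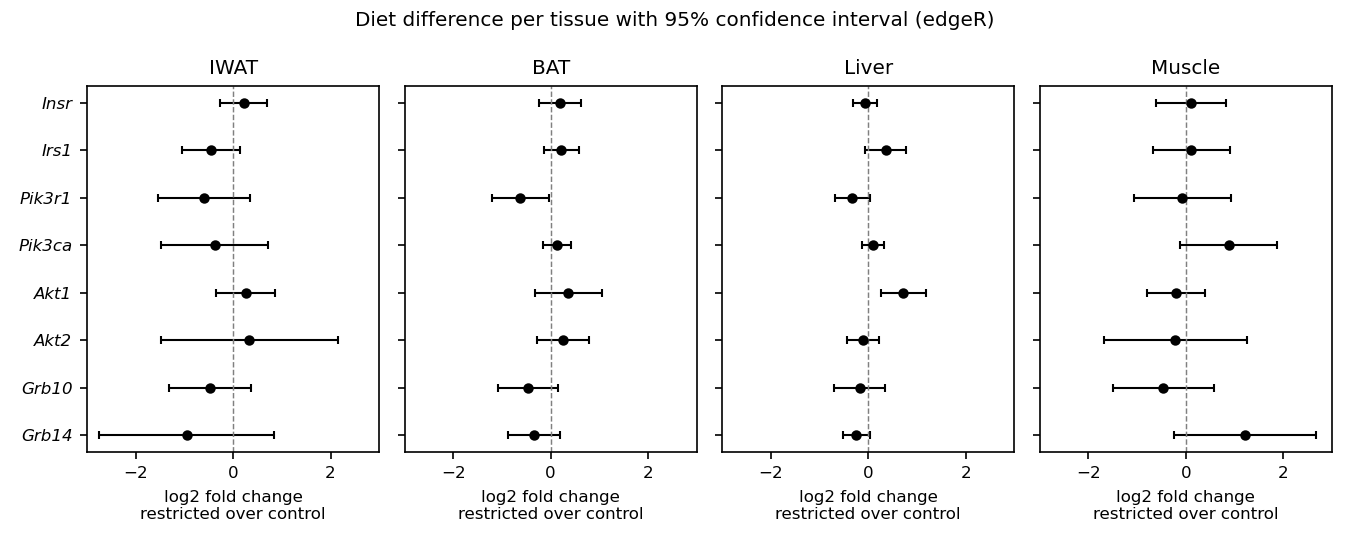
Log2 fold change of MR over control (horizontal axis) for the 8 tested members in each tissue, with 95% confidence intervals from edgeR; n is 6 MR and 6 control libraries, except muscle with 5 MR. The interval lay clear of 0 for Akt1 in liver (0.25 to 1.18) and Pik3r1 in BAT (-1.21 to -0.03), and those of Akt2 and Grb14 in IWAT and muscle were the widest.

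The receptor gene Insr had overlapping levels on the diets. In IWAT it was at 127 to 162 CPM in MR mice (median 138) and at 104 to 145 CPM in control mice (median 135), and in liver at 99.5 to 161 CPM (median 135) and 111 to 142 CPM (median 123). Its log2 fold change was between -0.06 (liver) and 0.22 (IWAT) over the 4 tissues, with signs that turned on library totals in liver (0.11) and muscle (-0.03), and the 95% confidence interval in liver, the tissue with the narrowest, ran from -0.32 to 0.19.

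Of the substrates, Irs1 showed opposite signs in IWAT and liver, neither past the threshold in any alternative. In liver it was at 23.7, 28.8 and 46.4 CPM (lowest, median and highest) in MR mice and at 16.3, 18.1 and 33.4 CPM in control mice, a log2 fold change of 0.36 ± 0.20 (SE, n = 6 each, edgeR adjusted p = 0.429). In IWAT it was at 23.3, 39.2 and 44.9 CPM in MR mice and at 38.3, 47.6 and 79.1 CPM in control mice, a log2 fold change of -0.45 ± 0.27 (adjusted p = 0.776). Every MR library lay above the mean of the controls in liver and below it in IWAT, but the groups overlapped in both tissues. These CPM are on library totals, where the median log2 fold change over all genes was 0.19 in liver and -0.13 in IWAT. With TMM those medians were 0.01 and -0.02. The IWAT value of Irs1 was -0.22 without the 3 libraries that stood apart, -0.22 with the level of lymphocyte markers as a covariate and -0.27 without CON3115 alone. The liver value was 0.20 without MR3102 and 0.54 on library totals. Irs1 in muscle was uniform among control mice, from 87.9 to 94.6 CPM, while the 5 MR mice had 22.2, 82.4, 93.2, 109.6 and 164 CPM. The lowest of these was the library with few muscle markers.

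Irs2, the other main substrate, was read at 0 to 9 tags per library and at no more than 0.782 CPM anywhere. It was too low to test, and at this depth no difference between diets was detectable. Whether the position of the last cut site in the transcript model bears on these counts was not tested.

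Pik3r1, the regulatory subunit that docks PI3-kinase to the substrates, had a lower point estimate in MR mice in all 4 tissues, with no stable sign in muscle. In BAT it was at 18.5, 48.2 and 64.0 CPM in MR mice (lowest, median and highest) and at 50.4, 72.5 and 103 CPM in control mice. All 6 MR libraries lay below the control mean, and the groups overlapped. The log2 fold change was -0.62 ± 0.27 (SE, n = 6 each), with an unadjusted edgeR quasi-likelihood p of 0.040 and an adjusted p of 0.340. In liver it was -0.33 ± 0.17 (adjusted p = 0.387), in IWAT -0.60 ± 0.44 (adjusted p = 0.893) and in muscle -0.07 ± 0.46 (adjusted p = 0.988). None of these passed the threshold. The muscle sign of Pik3r1 reversed in 4 of the 11 fits that left out 1 library, and without MR3101 the value was 0.17. The catalytic subunit Pik3ca differed by 0.09 to 0.13 on the log2 scale in liver and BAT. In liver the median log2 fold change over all genes was 0.19 on library totals, the scale of CPM, against 0.01 with TMM. There the MR libraries of Pik3ca ran from 53.3 to 68.1 CPM and its control libraries from 42.3 to 54.7 CPM, all MR libraries above the control mean. Its larger values, -0.37 ± 0.51 in IWAT and 0.88 ± 0.47 in muscle, rested on the libraries that stood apart: without them the ranges were 69.7 to 104 CPM in MR and 77.1 to 114 CPM in control IWAT, and 105 to 139.6 CPM in MR and 102 to 144 CPM in control muscle. Leaving out each IWAT library in turn moved the IWAT value of Pik3ca between -0.99 and 0.14, and leaving out MR3101 alone set the muscle value at 0.03, the lowest of the 11 such fits.

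Among the Akt kinases, Akt1 in liver was the member closest to the threshold. MR livers held 44.7, 76.9, 88.7, 90.6, 99.9 and 109 CPM and control livers 22.4, 35.6, 46.3, 53.7, 55.0 and 61.3 CPM. In 5 of 6 MR livers Akt1 exceeded every control liver, and MR3113 lay within the control range. The log2 fold change was 0.72 ± 0.22 (SE, n = 6 each, 95% confidence interval 0.25 to 1.18), with an unadjusted edgeR quasi-likelihood p of 0.0050 and an adjusted p of 0.113. DESeq2 gave 0.71 with an adjusted p of 0.045. On library totals, where the median log2 fold change over all genes was 0.19, edgeR gave 0.90 with an adjusted p of 0.037. Over all 18 alternatives it was between 0.58 and 0.90, with adjusted p from 0.037 to 0.216. In the other tissues Akt1 was at 0.26 ± 0.28 in IWAT, 0.37 ± 0.32 in BAT and -0.20 ± 0.28 in muscle on the log2 scale, none past the threshold. The IWAT value of Akt1 was 0.06 without MR3116 and 0.43 without MR3109, and the BAT value was 0.18 without CON3103. The muscle value was -0.08 without MR3101 and -0.31 without MR3104. Akt2, the isoform most tied to insulin-stimulated glucose uptake, had a log2 fold change of -0.10 ± 0.15 in liver and 0.26 ± 0.25 in BAT. MR livers held 139 to 189 CPM and control livers 79.5 to 194 CPM, so the groups overlapped throughout. Its 95% confidence interval ran from -1.49 to 2.15 in IWAT and from -1.69 to 1.26 in muscle, where the libraries that stood apart entered.

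Of the inhibitors, Grb10 had a lower point estimate in MR mice in all 4 tissues with TMM scaling, though not in liver on library totals, between -0.47 and -0.18 on the log2 scale, with adjusted p from 0.516 to 0.971. The muscle value was -0.17 without MR3101, and the IWAT value was -0.26 without CON3112. In BAT it was at 3.004, 5.69 and 9.74 CPM in MR mice and at 4.66, 9.08 and 12.7 CPM in control mice. The BAT libraries of CON3106, CON3112 and CON3114, with Grb10 at 12.7, 12.4 and 11.6 CPM, held 2569, 17199 and 9690 CPM of muscle markers. The other control libraries held 84.4 to 146 CPM of these markers, with Grb10 at 4.66 to 6.54 CPM. Of the MR libraries, MR3113 was highest in both (9.74 and 6529 CPM), while MR3116 was lowest in Grb10 with 2988 CPM of markers. The part of muscle tissue in these values was not tested. Grb10 was low in liver, at 1.09 to 3.50 CPM in MR mice and 1.51 to 2.72 CPM in control mice, where libraries held only 10 to 28 tags of it. On library totals the liver value was 0.0041, over these few tags. Grb14 had a log2 fold change of -0.34 ± 0.25 in BAT and -0.24 ± 0.13 in liver (adjusted p = 0.599 and 0.416), with overlapping groups in both. In IWAT its value was -0.95 ± 0.83 (adjusted p = 0.974), the largest in size of any member in that tissue and among those with the widest intervals. In muscle it was 1.21 ± 0.68 (adjusted p = 0.774) over MR libraries of 44.97, 54.9, 58.6, 72.2 and 394 CPM and control libraries of 53.8 to 133 CPM. Without the library at 394 CPM, that of MR3101, it was -0.44, so the muscle sign of Grb14 rested on that library.

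**Figure D3:**
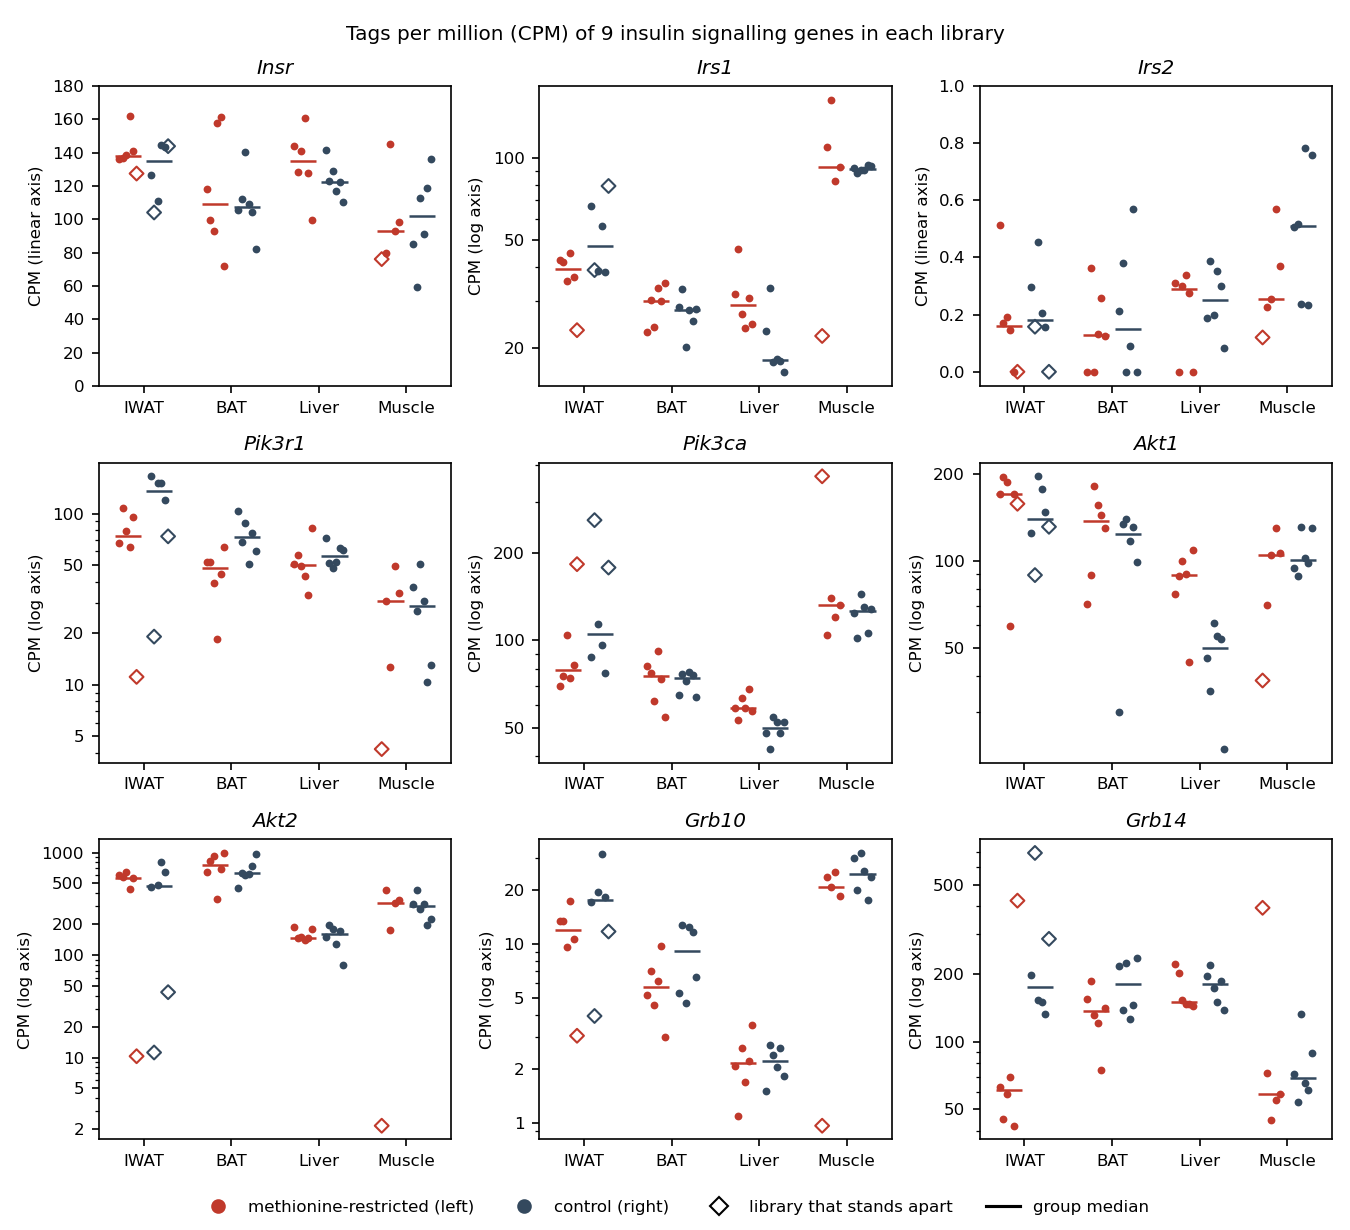
CPM of each member (vertical axis, logarithmic except for Insr and Irs2) in each library, by tissue, with MR libraries left in red and control libraries right in dark. Dots are libraries, open diamonds the 4 libraries that stood apart, and bars group medians. Open diamonds lie far below the dots for Akt2 and above them for Grb14 and Pik3ca, and Irs1 is highest in muscle.

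IWAT was examined with and without its 3 libraries that stood apart. Of the 5 remaining MR libraries, Grb14 was at 42.3, 45.4, 58.7, 63.1 and 69.9 CPM, and in the 4 remaining control libraries at 132, 149.6, 154 and 198 CPM. All MR libraries lay below all control libraries. Pik3r1 was at 64.0, 67.6, 79.5, 95.9 and 108 CPM in the MR libraries and at 119.8, 149.97, 152 and 165 CPM in the control libraries, again with no overlap. Of the 11101 genes tested over all IWAT libraries, 6.77% had every MR library below every control library in these 9, and 2 of the 8 tested members did. In the same 9 libraries the log2 fold change of Grb14 was -1.39 (adjusted p = 0.067) and that of Pik3r1 was -0.73 (adjusted p = 0.097), and 0 genes passed over the whole table.

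When all 12 libraries were kept and the slope of each on tag composition was a covariate, Grb14 fell by 0.97 (adjusted p = 0.032) and Pik3r1 fell by 0.91 (adjusted p = 0.028) on the log2 scale, and these 2 members passed in a setting where 853 genes did and where 4.01% of all genes were called lower in MR. With a term for the 3 libraries the values were -1.01 (adjusted p = 0.083) and -0.89 (adjusted p = 0.060), beside 620 genes past the threshold. These settings were chosen after the data were seen. Leaving out 1 library at a time moved Grb14 between -2.57 (without MR3116) and -0.10 (without CON3106), and moved Pik3r1 between -0.81 and -0.43. Over the 21 IWAT alternatives the lowest adjusted p was 0.032 for Grb14 and 0.028 for Pik3r1, both with the tag composition covariate, and no other passed.

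Cell markers also differed between the diets in IWAT. The 6 brown adipocyte markers summed to 1065 to 4227 CPM in MR libraries and 116 to 1316 CPM in control libraries. The 5 fibroblast and matrix markers summed to 972 to 1616 CPM in MR libraries and 1836 to 6239 CPM in control libraries, without overlap. The 8 lymphocyte markers ran from 8.58 to 1103 CPM in MR and from 10.7 to 2476 CPM in control libraries, and with their level as a covariate Grb14 was at -0.73 and Pik3r1 at -0.79. None of the markers of these 3 lists was at 0 throughout a group. The part of the brown adipocyte and fibroblast markers in the member values was not tested.

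**Figure D4:**
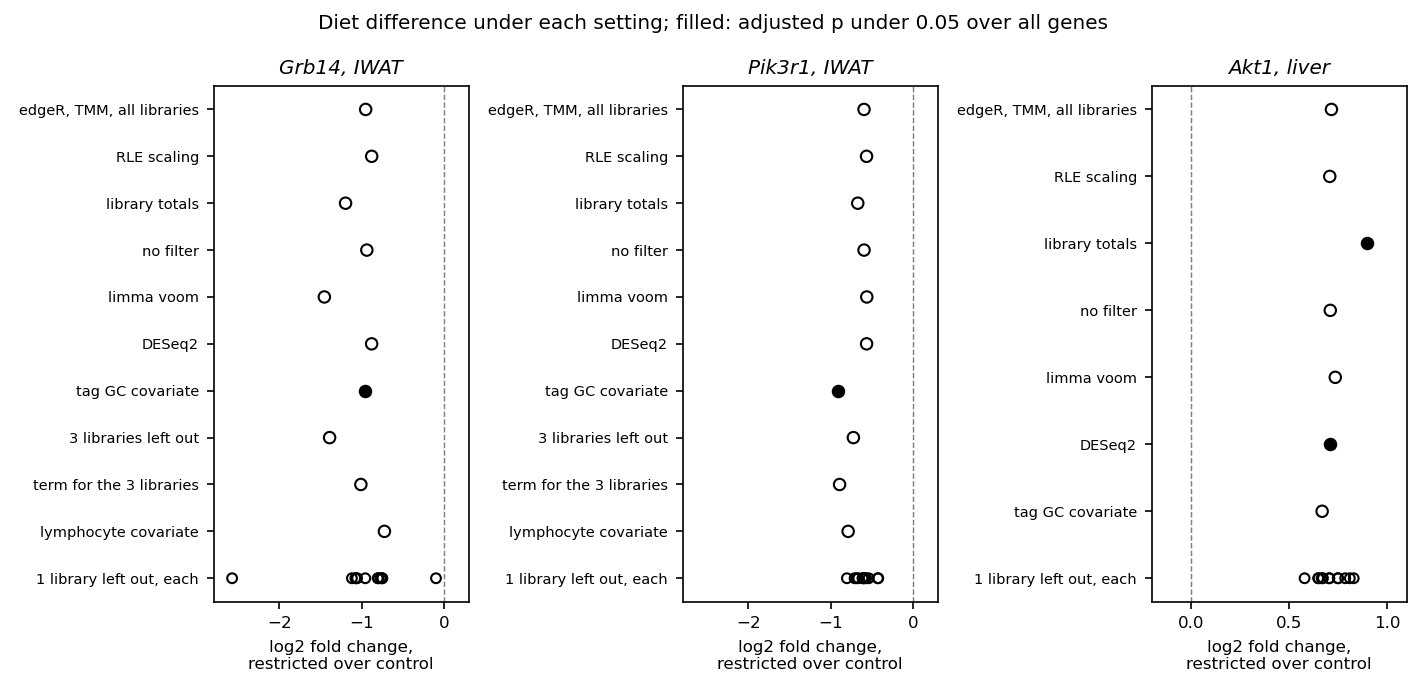
Log2 fold change of MR over control (horizontal axis) for Grb14 and Pik3r1 in IWAT and Akt1 in liver under each setting (vertical axis); filled circles mark an adjusted p under 0.05 over all tested genes. Values kept their sign in every setting drawn, filled circles are the tag composition covariate for Grb14 (-0.97) and Pik3r1 (-0.91) and DESeq2 (0.71) and library totals (0.90) for Akt1, and the lowest row shows the spread when 1 library is left out, from -2.57 to -0.10 for Grb14.

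Whether a diet difference itself depended on the tissue was asked of the 47 libraries together with edgeR, with no term for the mouse. This interaction passed for 71 of 13541 genes (0.524%) and for 0 of the 8 members, with 0 members at an unadjusted p under 0.05. The smallest adjusted p among the members was that of Grb14 (0.464), and that of Irs1, with its opposite signs in IWAT and liver, was 0.583. Without all libraries of mouse MR3116 the interaction of Grb14 had an adjusted p of 0.015 while 847 genes passed, and without the 4 libraries that stood apart 259 genes and 0 members passed.

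The tissues differed far more than the diets. On the control diet the 4 tissues were compared in 1 fit of 12854 genes, in which each of the 8 tested members passed in at least 1 pair of tissues, as did a large share of all genes. The members past the threshold numbered 2 of 8 for BAT over IWAT (38.2% of all genes), 5 for liver over IWAT (53.2%), 4 for muscle over IWAT (55.8%), 4 for liver over BAT (51.9%), 4 for muscle over BAT (44.1%) and 6 for muscle over liver (60.3%). The shares of members are near the background.

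TMM scaling, which assumes that most genes keep their level, left a median log2 fold change over all genes of -0.13 to 0.03 in these pairs. On library totals the median was -0.37 for BAT over IWAT, -0.82 for liver over IWAT, -0.73 for muscle over IWAT, -0.56 for liver over BAT, -0.31 for muscle over BAT and 0.24 for muscle over liver. The statements below give the TMM value and name those that library totals changed.

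Irs1 was highest in muscle, where control mice had a median of 91.1 CPM, against 47.6 in IWAT, 27.8 in BAT and 18.1 in liver. The log2 fold changes were 1.33 ± 0.24 over IWAT, 2.04 ± 0.24 over BAT and 1.92 ± 0.24 over liver (SE, n = 6 each, adjusted p = 5.6e-05, 4.0e-07 and 2.6e-07, edgeR). All 6 control muscle libraries lay above every BAT and liver library of control mice, and the muscle differences passed on library totals as well. IWAT exceeded BAT and liver by less: BAT over IWAT was -0.71 (adjusted p = 0.021) and liver over IWAT was -0.59 (adjusted p = 0.038), and without the control libraries CON3106 and CON3115 these were -0.42 and -0.31 with adjusted p of 0.130 and 0.233, past the threshold no longer. Leaving out 1 mouse ended the liver over IWAT call of Irs1 for CON3103, CON3112, CON3114 or CON3115 (-0.63 to -0.33, edgeR adjusted p = 0.056 to 0.282). It ended the BAT over IWAT call for CON3103 or CON3115 (-0.67 and -0.51, adjusted p = 0.074 and 0.122). Liver and BAT were neighbours that did not differ beyond their spread (0.11 ± 0.24).

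Grb10 spanned the widest range. Control mice had medians of 24.5 CPM in muscle, 17.6 in IWAT, 9.08 in BAT and 2.21 in liver, and muscle over liver was 3.28 ± 0.31 (adjusted p = 2.5e-09). Every step of this order passed except BAT over IWAT (-0.55 ± 0.28, adjusted p = 0.124). The lowest muscle library of control mice held 17.5 CPM and the highest liver library 2.72 CPM. On library totals muscle over IWAT no longer passed (0.54, adjusted p = 0.176), and BAT over IWAT did (-0.94, adjusted p = 0.034). BAT over IWAT also passed without CON3106 (-0.80, adjusted p = 0.020) and without both IWAT control libraries that stood apart (-0.79, adjusted p = 0.014). In BAT, CON3106, CON3112 and CON3114 held 11.6 to 12.7 CPM of Grb10 and 2569 to 17199 CPM of muscle markers. The other control BAT libraries held 4.66 to 6.54 CPM of Grb10 and 84.4 to 146 CPM of these markers. The part of muscle tissue in the BAT level was not tested.

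Muscle was lowest for Pik3r1, with 10.4, 29.0 and 50.7 CPM (lowest, median and highest) in control mice, while the medians were 134.9 CPM in IWAT, 72.5 in BAT and 56.5 in liver. The log2 fold changes of muscle were -1.40 ± 0.33 over IWAT, -1.22 ± 0.33 over BAT and -1.31 ± 0.33 over liver (adjusted p = 0.0011, 0.0044 and 0.0015), also past the threshold on library totals. IWAT, BAT and liver did not differ beyond their spread in the TMM fit. On library totals liver fell below IWAT (-0.97, adjusted p = 0.031). Pik3ca, its catalytic partner, had the reverse place in muscle, at 1.02 ± 0.30 over BAT and 1.09 ± 0.31 over liver (adjusted p = 0.0084 and 0.0033). In IWAT its level depended on 2 control libraries: BAT over IWAT was -0.76 (adjusted p = 0.0496) with them and 0.13 (adjusted p = 0.437) without them, liver over IWAT was -0.83 (adjusted p = 0.024) with them and 0.05 (adjusted p = 0.741) without, and muscle over IWAT was 0.26 (adjusted p = 0.478) with them and 1.15 (adjusted p = 2.0e-07) without. With the animal as a replicate block these Pik3ca calls against IWAT were lost as well, at -0.60 for BAT (adjusted p = 0.148) and -0.68 for liver (adjusted p = 0.083).

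Akt1 was lowest in liver. Control mice had a median of 50.0 CPM there, against 139.7 in IWAT, 124 in BAT and 100.5 in muscle. Liver was at -0.86 ± 0.27 over IWAT and -0.78 ± 0.27 over BAT (adjusted p = 0.0091 and 0.016), and muscle was at 1.05 ± 0.27 over liver (adjusted p = 0.0016). The other 3 tissues did not differ beyond their spread, and library totals kept each of these calls. Leaving out 1 mouse ended the liver over BAT call of Akt1 for CON3106, CON3107 or CON3115 (-0.70 to -0.67, adjusted p = 0.058 to 0.066) and the liver over IWAT call for CON3115 (-0.70, adjusted p = 0.0503). Akt2 had its highest median in BAT, 624 CPM in control mice, and its lowest in liver, 162 CPM. Liver over BAT was -1.70 ± 0.52 (adjusted p = 0.0088), the only pair past the threshold for Akt2. Without the control IWAT libraries at 11.2 and 43.4 CPM, liver over IWAT (-1.05, adjusted p = 0.0012), muscle over BAT (-0.94, adjusted p = 0.0016) and muscle over liver (0.77, adjusted p = 0.0056) passed too.

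Insr medians in control mice were 102 CPM in muscle, 107 in BAT, 123 in liver and 135 in IWAT. In the TMM fit liver exceeded IWAT by 0.69 ± 0.22 and BAT by 0.64 ± 0.22 (adjusted p = 0.011 and 0.018), although its median CPM was lower in liver than in IWAT. On library totals liver over IWAT was -0.06 (adjusted p = 0.791) and liver over BAT was 0.18 (adjusted p = 0.408), so its place among the tissues depended on the scaling. With TMM the liver over BAT call of Insr ended without CON3103 or CON3112 (0.61 and 0.64, edgeR adjusted p = 0.063 and 0.053). Muscle over liver (-0.47, adjusted p = 0.067) passed without CON3114 or CON3115 (-0.61 and -0.62, adjusted p = 0.044 and 0.032). Grb14 was low in muscle, with a control median of 68.8 CPM, against 176 in IWAT, 181 in BAT and 179.8 in liver. Muscle over liver was -1.38 ± 0.42 (adjusted p = 0.0063) and muscle over IWAT was -1.45 ± 0.42 (adjusted p = 0.0053). Muscle over BAT was -0.97 (adjusted p = 0.061) and passed on library totals (-1.19, adjusted p = 0.0063). The IWAT level of Grb14 again rested on the libraries that stood apart. Without them liver exceeded IWAT by 1.09 (adjusted p = 0.00097) and BAT exceeded it by 0.69 (adjusted p = 0.036), while muscle over IWAT was -0.28 (adjusted p = 0.329).

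Other genes of the pathway, 84 in all from 6 lists chosen with earlier results known, were read in the same diet tests. In IWAT 73 were tested and 0 passed (5 at an unadjusted p under 0.05), and in muscle 69 were tested and 0 passed (7 at an unadjusted p under 0.05). In BAT 1 of 69 passed. It was Gab1, a docking protein that binds PI3-kinase, which fell by 1.19 ± 0.22 on the log2 scale (adjusted p = 0.021). Its level was 0.821 ± 0.139 CPM in MR mice and 2.03 ± 0.41 CPM in control mice (SD, n = 6 each). The MR level lay near the bound of up to 0.571 CPM that a count of 0 allowed in BAT. With no filter on low counts the call of Gab1 was lost (edgeR adjusted p = 0.091). In liver 3 of 72 passed, close to the background of 2.26%. Igfbp2, an insulin-like growth factor binding protein, rose by 0.74 ± 0.13 (adjusted p = 0.0055), with 434 ± 76 CPM in MR mice and 230.1 ± 38.8 CPM in control mice. Inppl1, a lipid phosphatase that acts on the product of PI3-kinase, rose by 0.54 ± 0.12 (adjusted p = 0.030). Acly, the ATP citrate lyase that supplies acetyl groups for fat synthesis and is a substrate of Akt, fell by 0.74 ± 0.17 (adjusted p = 0.035). No gene passed in any tissue among the other PI3-kinase subunits (7 or 8 tested of 8) or the Akt partners and mTOR genes (10 tested of 11). Igfbp2 passed in all 18 alternatives, Gab1 in 12, and Inppl1 and Acly in 11 each; the calls lost included those without CON3112 for Gab1 (adjusted p = 0.072), MR3109 for Inppl1 (adjusted p = 0.085) and MR3116 for Acly (adjusted p = 0.078).

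For each tested member the 2 genes with the most similar profile were found, as the highest Pearson correlation of log2 CPM over the 47 libraries. These correlations describe tissue differences and the 4 libraries that stood apart together. Akt2 was closest to Prkaca (0.98), the catalytic subunit of protein kinase A, and Ntan1 (0.96). Pik3ca was closest to Spag9 and Smn1 (0.95 each), Grb10 to Synpo2 and Trim35 (0.93 each), Irs1 to Smad3 (0.90) and Smyd2 (0.89), and Pik3r1 to Pabpc1 (0.89) and Rdbp (0.87). Grb14 was closest to Fam173b (0.84) and Tbc1d8b (0.83), Insr to Hsp90b1 and Stau1 (0.78 each) and Akt1 to Nup62 (0.72) and Yif1b (0.70).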

How the data were processed

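Libraries were made with the SOLiD SAGE kit from 7 to 12 ng of total RNA per sample, and fragments that mapped to 1 place among RefSeq genes were kept, per the labels' protocols. The submitters' processing notes name mm10, GRCm38.p1 and DESeq, while no aligner or counter is named: these are not given in the sources that were read. The authors' deposited files hold raw tag counts per gene symbol with no normalization, 1 table of 26608 symbols per tissue; the authors' normalized tables were not used. The 26583 symbols common to the tables entered joint fits.

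Genes were kept with filterByExpr (minimum count 10), scaled by TMM and tested with edgeR 4.0.16 in R 4.3.3, each animal as a replicate within a tissue. The main tissue and interaction fits took the libraries of 1 mouse as independent, and a block for the animal was an alternative. DESeq2 1.42.0, limma voom 3.58.1, other scalings and filters and the omission of libraries were alternatives. Each SE was obtained from F, as the size of the log2 fold change over its square root. Tests were checked on simulated counts with known changes, in which no library was made to stand apart, so that check does not cover such libraries. The depth was 4887004 to 13117537 tags per library.

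The titles carry 1 number per mouse, so the tissues pair by animal. Libraries of 1 animal had mean correlations of -0.076 to 0.063 in their deviations from the group mean.

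The members and lists were chosen with earlier results of these data known. Named genes were all members, list genes that passed the diet test (up to 6 per direction and tissue, smallest p first), and the 2 genes closest to each member. Libraries stood apart where the median Spearman correlation was under 0.8. Library totals, the tag composition covariate, the term for libraries and the omission of IWAT control libraries from tissue contrasts were chosen after the data were seen. The predicted tags come from a reference of another build than the counts, and the tags that were counted are not in the files used here.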

Additional observations from a re-analysis of the deposited data

Results flagged for a closer look

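Of 72 groups of member values by tissue and diet, 11 held a library separated from the others by a gap that chance gives in about 5% of groups, and 7 of the 11 gaps lay in libraries that stood apart. In IWAT, MR3116 was at 10.3 CPM for Akt2, at 183 CPM for Pik3ca and at 424 CPM for Grb14, and CON3106 was at 691 CPM for Grb14. In muscle, MR3101 was at 0.961 CPM for Grb10, at 367 CPM for Pik3ca and at 394 CPM for Grb14.

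The other 4 gaps lay in libraries whose whole profile matched their tissue. Akt1 was at 59.7 CPM in IWAT of MR3109, against 158 to 195 CPM in the other MR mice, and at 30.2 CPM in BAT of CON3103, against 99.1 to 139.6 CPM in the other controls. Irs1 was at 46.4 CPM in liver of MR3102, against 23.7 to 31.7 CPM in the other MR mice. Irs2 was at 0.515 CPM in IWAT of MR3101, which is 3 tags.

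Irs1 had opposite directions in 2 tissues: the mean of MR minus control was -15.6 CPM in IWAT, with every MR library below the control mean, and 9.501 CPM in liver, with every MR library above it. That pair of tissues was not tested on its own, and the interaction over the 4 tissues had an adjusted p of 0.583 for Irs1. These CPM are on library totals, where the median log2 fold change over all genes was -0.13 in IWAT and 0.19 in liver.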

How the results depend on the processing

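The count of genes past the threshold for diet in IWAT (3) was 67 on library totals, 7 with limma voom, 310 with DESeq2, 853 with the tag composition covariate (2 members), 0 without the 3 libraries that stood apart (1826 at an unadjusted p under 0.05), 620 with a term for them and 13 with the lymphocyte covariate. DESeq2 passed 319 genes in BAT and 476 in liver (1 member). Library totals passed 627 in liver (1 member), 548 higher and 79 lower against 115 and 133, and 39 higher and 64 lower in BAT against 62 and 58. With the tag composition covariate Akt2 was -0.14 in IWAT (-0.15 with the term), and in muscle Pik3r1 was 0.16, Akt2 0.13 and Grb14 -0.45. Irs1 in muscle was -0.063 with limma voom. DESeq2 gave no adjusted p for Grb14 and Pik3ca in muscle. On library totals the diet value was 0.11 for Insr, 0.072 for Akt2 and 0.0041 for Grb10 in liver and -0.031 for Insr in muscle.

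Library totals also turned tissue values: Insr -0.24 (BAT over IWAT), -0.061 (liver over IWAT), -0.36 (muscle over IWAT) and -0.12 (muscle over BAT); muscle over IWAT -0.15 for Pik3ca, -0.43 for Akt1 and -0.48 for Akt2; liver over BAT -0.36 for Irs1, -0.36 for Pik3r1 and -0.033 for Grb14; muscle over BAT -0.015 for Akt1. The genes higher and lower became 1343 and 3800 (BAT over IWAT, 2409 and 2504 with TMM), 1636 and 6370 (liver over IWAT, 3232 and 3602), 1747 and 5968 (muscle over IWAT, 3160 and 4012), 2015 and 5172 (liver over BAT, 3019 and 3648), 2016 and 3676 (muscle over BAT, 2760 and 2914), and 4471 and 3194 (muscle over liver, 3976 and 3775). With the replicate block for the animal, 1 member passed for BAT over IWAT, as it did with no filter, liver over IWAT was 0.012 for Pik3r1 and 0.22 for Grb14, and 41 genes passed the interaction; the block changed no other call of a member than those of Pik3ca given above. Without the IWAT control libraries that stood apart, Pik3ca was 0.13 and Grb14 0.69 for BAT over IWAT, 0.055 and 1.09 for liver over IWAT, and Akt2 was -0.29 for muscle over IWAT. The interaction passed 39 genes with no filter and 259 without the 4 libraries that stood apart.

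Leaving out 1 mouse at a time gave 0 to 41 genes in IWAT (41 without CON3114). It gave 50 to 111 genes in BAT. The liver count was 158 to 322, and the interaction count was 23 to 847, with 0 to 1 members. Diet values ranged from -0.99 to 0.14 for Pik3ca in IWAT, from -0.15 to 0.019 for Insr in liver and, in muscle, from -0.30 to 0.17 for Pik3r1, -0.54 to 0.11 for Akt2, -0.44 to 1.43 for Grb14, -0.10 to 0.24 for Insr and -0.25 to 0.32 for Irs1. Members past the threshold numbered 0 to 2 for BAT over IWAT and 2 to 5 for liver over IWAT. Tissue values ranged from -0.17 to 0.20 (Insr), -0.19 to 0.088 (Akt1) and -0.72 to 0.43 (Grb14) for BAT over IWAT, -0.25 to 0.026 (Pik3r1) and -0.24 to 0.67 (Grb14) for liver over IWAT, -0.15 to 0.54 (Akt2) for muscle over IWAT, -0.041 to 0.18 (Irs1) for liver over BAT and -0.030 to 0.33 (Insr) for muscle over BAT. The cause of these changes was not tested. At 0 to 9 tags of Irs2 per library and 10 to 28 of Grb10 in liver, counting error is large.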
